A study of Mus musculus with 14 samples.

Results

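The regions described here were strongly acetylated in control organoids and carried little of that acetylation after the RANKL protocol. They were chosen by their H3K27ac values: a mean of at least 20 reads per 1000000 reads in regions (CPM) over 3 control libraries, and a RANKL mean of at most 0.4 times the control mean. Of 55050 regions in the authors' H3K27ac count table, each 2000 bp wide, 15790 reached 20 CPM in control organoids, and 405 of these met both conditions and are called members. The remaining 15385 are called the other strong regions. Because the H3K27ac contrast chose the members, their H3K27ac values are a description, and nothing is read from edgeR's calls on the members themselves.

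The RANKL group consisted of small-intestinal organoids given 3 µM CHIR99021, a GSK3 inhibitor that activates Wnt signalling, with 1.5 mM valproic acid, a histone deacetylase inhibitor, for 3 days. They then spent 1 day in ENR, a medium with EGF, Noggin and R-spondin 1, received 100 ng/mL RANKL and were harvested on day 6. The control group was kept in ENR medium. Each group had 3 H3K27ac and 3 ONECUT2 ChIPmentation libraries, one of each from every one of 3 independent differentiation experiments. All organoids came from 1 line of a female Lgr5GFPDTR/+ mouse, so both groups carry an insertion of a fluorescent and toxin-receptor cassette in an allele of Lgr5, and the errors below describe differentiation experiments and not animals. A difference belongs to the whole protocol, in which RANKL, CHIR99021 and valproic acid cannot be told apart.

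Acetylation of histone H3 at lysine 27 is found at active promoters and enhancers, and its loss usually goes with lower activity of a regulatory element. In the intestinal crypt, stem cells that carry the R-spondin receptor Lgr5 divide under Wnt, Notch and EGF signals while BMP signals favour differentiation. RANKL acts through its receptor on epithelial cells and leads some of them to become M cells, which carry antigen from the gut lumen to underlying lymphoid tissue. In a bulk culture, fewer cells of a type and less acetylation per cell cannot be told apart.

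Some members cover the start site of a gene, and for these RefSeq (GRCm38.p6) gives promoter sequence. The 150 bases before the start are printed 5′ to 3′ on the gene's own strand for 8 genes. Oas1a (chr5:120907526-120907675, minus strand) and Oas1g (chr5:120887614-120887763, minus strand) are related copies of an antiviral 2′-5′ oligoadenylate synthetase gene. Ifi44 (chr3:151749911-151750060, minus strand) and Ddx60 (chr8:61927937-61928086, plus strand), which encodes a helicase of antiviral sensing, are further interferon-stimulated genes. Capitals in these 4 mark the letters GAAACT on either strand, a motif chosen after the data were seen. Such letters recur in the elements bound by interferon regulatory factors. They are not shared by all interferon-stimulated members: the 250-base windows of Irf9, Isg20, Xaf1, Cmpk2 and Oasl2 hold none.
Oas1a: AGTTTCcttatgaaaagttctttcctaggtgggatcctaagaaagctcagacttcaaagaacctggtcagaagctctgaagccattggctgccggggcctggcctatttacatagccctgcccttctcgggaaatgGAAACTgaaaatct
Oas1g: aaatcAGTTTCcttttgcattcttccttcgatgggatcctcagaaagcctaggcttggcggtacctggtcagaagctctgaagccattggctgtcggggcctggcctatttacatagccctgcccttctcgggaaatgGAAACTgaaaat
Ifi44: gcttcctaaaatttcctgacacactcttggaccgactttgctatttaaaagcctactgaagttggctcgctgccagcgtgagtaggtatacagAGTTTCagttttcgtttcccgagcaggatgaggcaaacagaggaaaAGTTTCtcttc
Ddx60: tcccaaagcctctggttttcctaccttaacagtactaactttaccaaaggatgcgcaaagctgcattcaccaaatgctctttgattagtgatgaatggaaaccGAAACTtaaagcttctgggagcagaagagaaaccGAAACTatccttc
Slc35f2 (chr9:53771385-53771534, plus strand), Camk2n2 (chr16:20621279-20621428, minus strand) and Cracdl (chr1:37719812-37719961, minus strand) had, with Ifi44, the lowest RANKL-to-control ratios among members that cover a start with a RefSeq promoter. In these 3, capitals mark any of the motifs listed with the promoter counts further on. The 150 bases hold a single GAAACT for Slc35f2 and none of those letters for Camk2n2 and Cracdl.
Slc35f2: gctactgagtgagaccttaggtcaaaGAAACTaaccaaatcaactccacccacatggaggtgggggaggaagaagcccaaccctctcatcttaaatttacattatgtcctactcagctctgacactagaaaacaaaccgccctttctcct
Camk2n2: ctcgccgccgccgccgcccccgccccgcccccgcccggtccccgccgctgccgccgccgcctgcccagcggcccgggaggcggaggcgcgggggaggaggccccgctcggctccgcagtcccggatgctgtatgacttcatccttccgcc
Cracdl: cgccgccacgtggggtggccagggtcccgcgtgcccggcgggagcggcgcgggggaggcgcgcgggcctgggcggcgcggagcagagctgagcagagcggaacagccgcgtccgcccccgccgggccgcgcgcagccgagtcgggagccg
Meaf6 (chr4:125084984-125085133, plus strand), which encodes a subunit of histone acetyltransferase complexes, held the only ETS letters, in capitals, among the 250-base promoter windows of members.
Meaf6: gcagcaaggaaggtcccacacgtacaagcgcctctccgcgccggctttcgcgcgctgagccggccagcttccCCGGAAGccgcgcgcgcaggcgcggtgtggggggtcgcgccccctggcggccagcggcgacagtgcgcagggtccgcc
The 2 Oas1 copies each had GAAACT within 14 bases of the start and again, on the other strand, 145 to 150 bases before it. Ifi44 had its matches 57 and 11 bases before the start, and Ddx60 47 and 13 bases before it. A match of letters is not evidence of binding.

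Across the 405 members the median H3K27ac level was 11.1 CPM in RANKL organoids (range 4.46 to 39.95) and 34.3 CPM in control organoids (range 20.0 to 106). The median ratio was 0.338, and the lowest was 0.140. The other strong regions had medians of 34.3 CPM in RANKL organoids and 40.3 CPM in control organoids, with a median ratio of 0.832. The plot of RANKL against control means shows the members as the low edge of one continuous cloud, with no gap at the chosen ratio. There were 19 members with a ratio of at most 0.2, 99 between 0.2 and 0.3 and 287 between 0.3 and 0.4, and 643 further strong regions lay between 0.4 and 0.5.

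**Figure D1:**
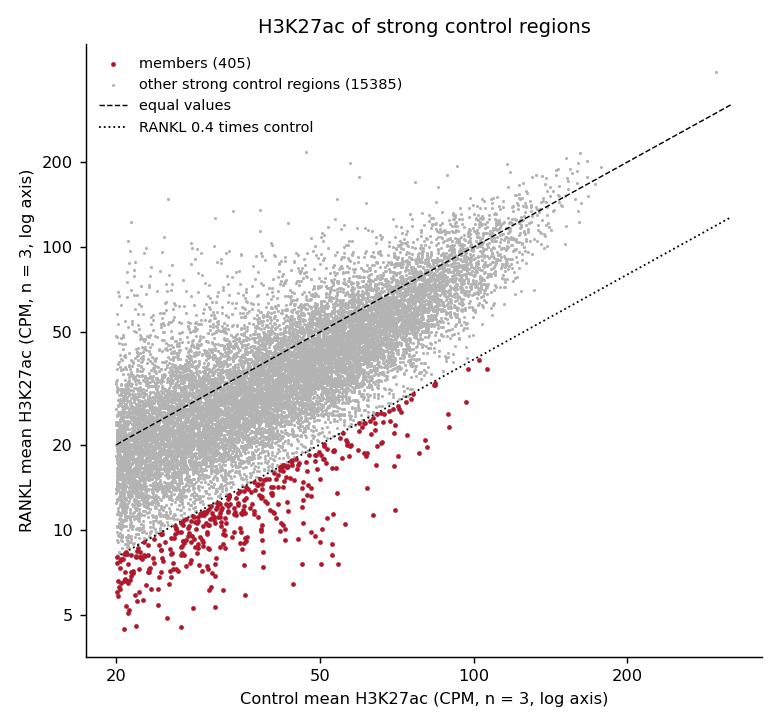
Mean H3K27ac in RANKL organoids (vertical, CPM, log axis) against the mean in control organoids (horizontal, CPM, log axis) for 15790 strong control regions, with 405 members in red. The members continue the lower edge of the other 15385 regions (grey), below the dotted line at 0.4 times control.

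Members stood lower among all regions in RANKL organoids, which follows largely from the choice, but none was without reads. No background level was set, so how much acetylation remained was not tested. The median member stood at percentile 54.3 of all regions in RANKL organoids and at percentile 82.5 in control organoids, and 154 of 405 were below the median region in RANKL organoids. Members together held 0.510 ± 0.0139% of the reads in regions in RANKL libraries and 1.57 ± 0.0215% in control libraries (SD, n = 3 each). No member was at 0 in any library, although the lowest count in a RANKL library was 6 reads, at which counting error alone is large. By control level, members made up 3.07% of regions with 20 to 30 CPM in control organoids, 3.59% at 30 to 40 CPM, 2.30% at 40 to 60 CPM and 0.790% at 80 CPM or more.

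All 405 members were lower by edgeR's quasi-likelihood test at an adjusted p under 0.05, as were 21% of all 54765 regions tested, while 14.8% were higher. The balance of all regions depends on the scaling: edgeR with TMM called 11523 lower and 8120 higher, and by library size only 9608 lower and 9918 higher. That every member was lower follows from the choice of members, and nothing is read from it. In all 405 the 3 RANKL values also lay below the 3 control values, as they did in 52.0% of other strong regions and 20.4% of all regions. This separation and the ratios of single experiments come from the libraries that chose the members, so they are a description too. Each experiment gave a similar picture, with a median ratio of 0.322, 0.328 and 0.342 in experiments 1 to 3. In 194 members the ratio was at most 0.4 in every experiment.

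The choice can be repeated with 2 experiments and read in the experiment left out. Regions chosen without experiment 1 numbered 409 and had a median ratio of 0.357 in it. The 439 regions chosen without experiment 2 had a median ratio of 0.367 in that experiment, and the 454 chosen without experiment 3 had one of 0.373. All of them had a ratio below 1 in the experiment left out, and 83.3 to 87.7% had a ratio of at most 0.5, which 5.50 to 6.81% of the other strong regions also had. The left-out ratios were a little higher than those inside the choice, and the other strong regions had medians of 0.826 to 0.856. Those regions had failed the ratio limit in the same 2 experiments, so part of this gap follows from the choice. Of the regions chosen, 331 to 353 were members. Each left-out ratio rests on 1 library a group, and nothing was tested.

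Lgr5, the R-spondin receptor that marks crypt base stem cells, had the lowest ratio and, with Galnt7, the most members, 5 of the 9 regions nearest to it. At the gene end (chr10:115585614-115587614), H3K27ac was 6.56, 9.53 and 6.66 CPM in RANKL libraries 1 to 3, against 55.4, 53.8 and 53.6 CPM in control libraries 1 to 3. The groups were far apart, and the control libraries hardly differed from one another, with means of 7.58 ± 1.69 CPM in RANKL organoids and 54.3 ± 0.975 CPM in control organoids (SD, n = 3 each), a 7.16-fold lower value. Inside the gene, the region at chr10:115504935-115506935 had 10.6, 8.30 and 12.6 CPM in RANKL libraries, against 61.3, 52.7 and 53.8 CPM in control libraries. The region at chr10:115560319-115562319 had 9.11, 11.4 and 7.43 CPM in RANKL libraries, against 46.6, 42.8 and 47.0 CPM in control libraries. The remaining pair of members was weaker in control organoids, at means of 20.7 and 24.1 CPM, and stood at ratios of 0.317 and 0.226. A further region of the gene (chr10:115483832-115485832) had a ratio of 0.231 and missed the members only by its control mean of 18.6 CPM. Outside the gene, the region at chr10:115624005-115626005 was higher by edgeR, with 14.9, 21.5 and 28.7 CPM in RANKL libraries and 11.8, 17.4 and 13.6 CPM in control libraries, and there the groups overlapped.

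Other genes of stem cells and of Wnt signalling had 1 or 2 members each. Smoc2, a secreted matricellular protein of the Lgr5 stem cell signature, had a member at its gene end with 12.0, 8.61 and 15.6 CPM in RANKL libraries and 34.6, 32.8 and 31.9 CPM in control libraries. Its other member, 28.7 kb away, had a ratio of 0.359. Within the Smoc2 gene span, however, the region at chr17:14287407-14289407 went the other way by edgeR, with 54.6, 57.2 and 62.8 CPM in RANKL libraries and 21.3, 22.1 and 16.7 CPM in control libraries, a ratio of 2.91. Ephb2, a receptor tyrosine kinase that positions cells along the crypt, had a member in its gene span (chr4:136814677-136816677) with 2.91, 8.30 and 6.41 CPM in RANKL libraries and 26.7, 21.5 and 17.2 CPM in control libraries. Of the 13 regions nearest to Ephb2, 2 were higher by edgeR, at ratios of 2.64 and 1.59. Myc, a transcription factor gene activated by Wnt signalling, had 1 member 44.8 kb from it, with means of 9.74 ± 1.24 CPM in RANKL organoids and 27.8 ± 1.66 CPM in control organoids. Of its 12 regions, 2 were higher by edgeR, at ratios of 3.88 and 1.48. Fstl1, a secreted modulator of BMP signalling, had 1 member in its span at a ratio of 0.360, while another region of the span (chr16:37813545-37815545) was higher by edgeR, with 24.4, 22.8 and 17.7 CPM in RANKL libraries and 5.15, 6.77 and 7.35 CPM in control libraries.

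Of the 30 genes on the stem cell and Wnt list, 23 had a strong region and 5 had a member. Among all 9877 genes with a strong region, 340 had a member (3.44%), and members were 2.56% of all strong regions, so that few are to be found in a short list of genes. Over the 189 regions nearest to the list's genes, 71 were lower and 30 higher by edgeR, 37.6% and 15.9%, against 21% and 14.8% of all regions. The median ratio was 0.937, against 1.12 over all regions. The 71 include the list's 10 members, which are lower by their choice. Control levels were not matched: 74 of the 189 regions were strong, and of all 15790 strong regions 56.6% were lower, with a median ratio of 0.823. Both limits apply to the counts of every list below that has members. In the Notch pathway, Notch1, a receptor that keeps stem cells from the secretory fate, had a member over its start (chr2:26502809-26504809) with 9.83, 4.30 and 7.94 CPM in RANKL libraries and 41.2, 43.2 and 31.7 CPM in control libraries. Lfng, a glycosyltransferase that modifies Notch receptors, had a member 9.40 kb from its start at a ratio of 0.353. Another Lfng region (chr5:140615875-140617875) was higher by edgeR, with 42.6, 33.2 and 39.5 CPM in RANKL libraries and 9.57, 8.62 and 8.25 CPM in control libraries. These were the 2 of 15 Notch genes with a member, and of the list's 85 regions 28 were lower and 14 higher, 32.9% and 16.5%.

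**Figure D2:**
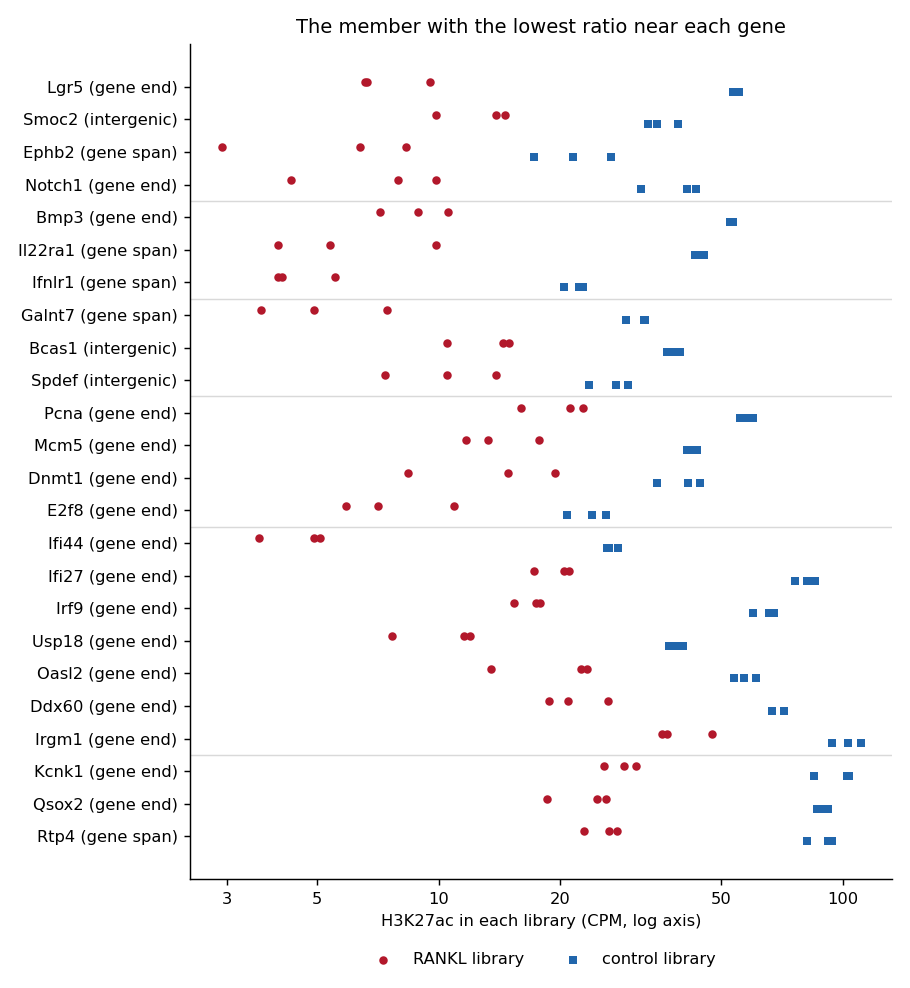
H3K27ac (CPM, log axis) in each of 3 RANKL libraries (red circles) and 3 control libraries (blue squares) at the lowest-ratio member near each of 24 genes, grouped by role from stem cell genes at the top to the highest control levels at the bottom. In every member shown the RANKL points lie left of the control points.

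Further members lay near receptors and ligands from 4 other lists. Bmp3, an antagonist within the BMP family, had 2 members. The one at its gene end (chr5:98854380-98856380) had 10.6, 8.92 and 7.18 CPM in RANKL libraries, against 52.6, 52.6 and 53.4 CPM in control libraries, and the other, 10.6 kb away, had a ratio of 0.258. Il22ra1, a chain of the receptor for interleukin 22, had 3 members among its 4 regions. The lowest, 24.9 kb from its start (chr4:135752087-135754087), had 4.01, 9.84 and 5.38 CPM in RANKL libraries and 45.3, 43.0 and 44.6 CPM in control libraries, a 6.91-fold lower value, and it lies 5.63 kb from the start of the muscle gene Myom3. At the Il22ra1 start the loss was smaller, with means of 11.4 ± 1.17 CPM in RANKL organoids and 30.7 ± 1.85 CPM in control organoids. Ifnlr1, the chain of the type III interferon receptor encoded beside Il22ra1, had a member in its span (chr4:135689435-135691435) with 4.01, 5.53 and 4.10 CPM in RANKL libraries and 22.3, 20.4 and 22.8 CPM in control libraries. Errfi1, a feedback inhibitor of the EGF receptor, had a member 71.3 kb from its start at a ratio of 0.269. Another Errfi1 region (chr4:150880407-150882407) was higher by edgeR, with means of 32.8 CPM in RANKL organoids and 11.9 CPM in control organoids. Of the adhesion genes, Ptpro, a receptor-type tyrosine phosphatase, had 3 members. Itga6, a laminin-binding integrin chain, had 1, at the very limit of the choice, while another of its regions (chr2:71750561-71752561) was higher by edgeR, with 101, 107 and 106 CPM in RANKL libraries and 21.2, 20.9 and 21.3 CPM in control libraries. These lists were mixed as a whole, beside 21% of all regions lower and 14.8% higher. The BMP and TGF-beta list had a member at 1 of 19 genes, with 17 of 90 regions lower (18.9%) and 24 higher (26.7%). The cytokine receptor list had members at 2 of 17 genes, with 19 of 54 regions lower (35.2%) and 12 higher (22.2%). The EGF receptor and MAPK list had a member at 1 of 20 genes, with 34 of 113 regions lower (30.1%) and 18 higher (15.9%). The ephrin, semaphorin and adhesion list had members at 2 of 17 genes, with 30 of 89 regions lower (33.7%) and 13 higher (14.6%). The median ratio over the regions of these lists was 1.19, 0.934, 1.05 and 0.984 in this order, against 1.12 over all regions.

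Among genes of secretory cells, Galnt7, a transferase in the O-glycosylation of mucins, had 5 members. Its start (chr8:57652649-57654649) had 13.1, 10.8 and 10.3 CPM in RANKL libraries and 56.1, 52.2 and 51.3 CPM in control libraries. The other members followed in a run of 41.0 kb within the span, with ratios of 0.171 to 0.307. Spdef, an ETS-family transcription factor of goblet cell maturation, had a member 4.61 kb from its start with 13.8, 7.38 and 10.5 CPM in RANKL libraries and 27.4, 29.5 and 23.5 CPM in control libraries. Bcas1 had a member 18.1 kb away at a ratio of 0.349, while 1 of its 16 regions was higher by edgeR, at a ratio of 1.64. These were the 3 of 16 goblet cell genes with a member. Over the list's 71 regions, 27 were lower and 8 higher (38.0% and 11.3%, against 21% and 14.8% of all regions), with a median ratio of 0.905. The 27 include the list's 7 members, and 21 of the 71 regions were strong. Of enterocyte and lipid genes, Acot1, an acyl-CoA thioesterase, had a start region among the members, at a ratio of 0.262. The chylomicron apolipoprotein gene Apob had one 111 kb from its start, at a ratio of 0.301 and with a control mean of 20.1 CPM, at the limit of the choice. The Apob start stood at a ratio of 0.781, and another of its regions (chr12:7918144-7920144) was higher by edgeR, with 56.5, 62.4 and 53.3 CPM in RANKL libraries and 32.2, 32.6 and 28.3 CPM in control libraries.

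Genes of DNA replication had members mainly at their starts. Pcna, the sliding clamp of DNA polymerase, had 21.1, 16.0 and 22.8 CPM in RANKL libraries and 57.4, 55.7 and 59.9 CPM in control libraries (chr2:132252313-132254313). Mcm5, a subunit of the replicative helicase, had 11.7, 13.2 and 17.7 CPM in RANKL libraries and 41.2, 43.6 and 42.7 CPM in control libraries at its start, while a weak region 48.2 kb away was higher by edgeR, at a ratio of 7.15. Rrm2, a subunit of ribonucleotide reductase, had its member 15.4 kb from the start, at a ratio of 0.304. These were the 3 of 20 cell cycle genes with a member. Over the list's 37 regions 20 were lower and 5 higher by edgeR (54.1% and 13.5%, against 21% and 14.8% of all regions), with a median ratio of 0.774. The 20 include the list's 3 members, and 21 of the 37 regions were strong. Further replication genes, picked after their values were seen and counted toward nothing, had members over a gene end. They were the maintenance DNA methyltransferase Dnmt1, the E2F-family repressor E2f8, the checkpoint kinase Chek1, the primase subunit Prim2, the clamp loader subunit Rfc1, the origin-firing kinase Cdc7, the origin-firing factor Ticrr, the uracil glycosylase Ung and the cohesion factor Dscc1. Their ratios ran from 0.334 at Dscc1 to 0.390 at Chek1, so these members lay nearer to the limit than those of Lgr5 or Bmp3.

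Interferon-stimulated genes made up a further group, again mostly at gene ends. Irf9, the DNA-binding subunit of the complex that type I and III interferons activate, had 17.8, 15.4 and 17.4 CPM in RANKL libraries and 67.7, 59.9 and 65.8 CPM in control libraries (chr14:55603116-55605116). Ifi27 had 20.4, 17.2 and 21.0 CPM in RANKL libraries and 85.4, 76.0 and 81.6 CPM in control libraries. Oasl2, of the oligoadenylate synthetase family, had 13.5, 22.4 and 23.3 CPM in RANKL libraries and 57.0, 53.7 and 61.1 CPM in control libraries. In these the groups were separated by more than the range of either group. Oas1a, whose promoter is printed above, had 7.65, 14.8 and 12.0 CPM in RANKL libraries and 32.2, 37.6 and 35.5 CPM in control libraries. Oas1g had 11.3, 9.84 and 9.74 CPM in RANKL libraries and 30.5, 34.3 and 23.8 CPM in control libraries. The 2 genes are related copies, and whether the authors' read assignment kept their reads apart was not checked.

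Irf9, Ifi27, Oasl2 and Oas1a were the 4 of 24 genes on the interferon and antigen list with a member. Over the list's 37 regions 17 were lower and 3 higher (45.9% and 8.11%, against 21% and 14.8% of all regions), with a median ratio of 0.871. The 17 include the list's 4 members, and 19 of the 37 regions were strong. Of the 25 listed genes with a member on any list, 11 also had a region that was higher by edgeR. These genes had up to 16 regions each, and the same share over all genes was not counted. Nothing is therefore read from the 11. Other interferon-stimulated genes, picked after their values were seen, had members too. Ifi44 had 5.10, 4.92 and 3.59 CPM in RANKL libraries and 26.1, 27.8 and 26.4 CPM in control libraries, a 5.90-fold lower value. Usp18, the protease that removes ISG15 and limits interferon signalling, had 7.65, 12.0 and 11.5 CPM in RANKL libraries and 38.5, 40.3 and 37.1 CPM in control libraries. Ddx60 had 26.2, 20.9 and 18.7 CPM in RANKL libraries and 66.8, 71.4 and 71.7 CPM in control libraries. The nucleotide kinase Cmpk2, the nucleic acid sensor Zbp1, the exonuclease Isg20, Oas2, Xaf1 and H2-T24 had members over a gene end with ratios of 0.302 to 0.384. Of the interferon receptor genes on the cytokine receptor list, only Ifnlr1 had a member. A link between it and the members near interferon-stimulated genes was not tested.

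The members with the highest control levels included more of these genes. Egr1, an immediate-early transcription factor, had the highest control level, with 33.9, 41.5 and 35.4 CPM in RANKL libraries and 109, 94.9 and 115 CPM in control libraries (chr18:34859828-34861828). Irgm1, an interferon-induced GTPase, had 36.8, 35.7 and 47.4 CPM in RANKL libraries and 103, 93.8 and 111 CPM in control libraries. The potassium channel gene Kcnk1 had 28.8, 30.7 and 25.6 CPM in RANKL libraries and 103, 84.7 and 102 CPM in control libraries. The other members of the 10 with the highest control level lay near Tmprss2 (a membrane serine protease), Qsox2 (a sulfhydryl oxidase), Rtp4 and Slfn2 (both interferon-induced), Fcamr (a receptor for IgA and IgM), Lbr (the lamin B receptor) and Ifi27. The start regions of Slfn2 and Tmprss2 were not called, at ratios of 1.06 and 1.10. Of the 10 with the lowest ratio, those not yet described were near Slc35f2, Camk2n2 (an inhibitor of CaM kinase II), Fam174b and, for a pair of regions, Gm5294. Slc35f2 had 10.2, 7.07 and 5.38 CPM in RANKL libraries and 47.8, 52.6 and 50.7 CPM in control libraries at its start (chr9:53770650-53772650).

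The members were spread over many genes and only some of them stood together. In all, 382 lay within 100 kb of a protein-coding gene, nearest to 340 genes, and 313 of these genes had a single member. Regions can act on genes other than the nearest one. Members no more than 20 kb apart formed 28 runs with 65 members, 16.0% of all, and 8 runs had at least 3 members. The runs of 3 or more lay near Galnt7, Cracdl, Lgr5, Kcnf1 (a potassium channel subunit), Il22ra1, Gm5294, Ptpro and the pair Ror2 and Sptlc1. Of the other genes with 3 members, Ntn4 and Atp2c2, a Golgi calcium pump, had one of theirs at a gene end. The 3 members of Wwox, an oxidoreductase gene, all lay 424 to 454 kb from its nearer end, at ratios of 0.280 to 0.382, and the region at the Wwox gene end was not called, at a ratio of 1.07. The Gm5294 run (chr5:138863064-138876659) is intergenic and starts 43.0 kb from that gene. Its 3 members had RANKL means of 10.6, 8.12 and 7.58 CPM and control means of 46.4, 52.9 and 46.2 CPM. The Ptpro run, at the far end of that gene's span, lies 33.0 to 50.3 kb from the start of the signalling adaptor gene Eps8, and its strongest region had 12.4, 12.6 and 8.71 CPM in RANKL libraries and 66.8, 58.8 and 65.1 CPM in control libraries.

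**Figure D3:**
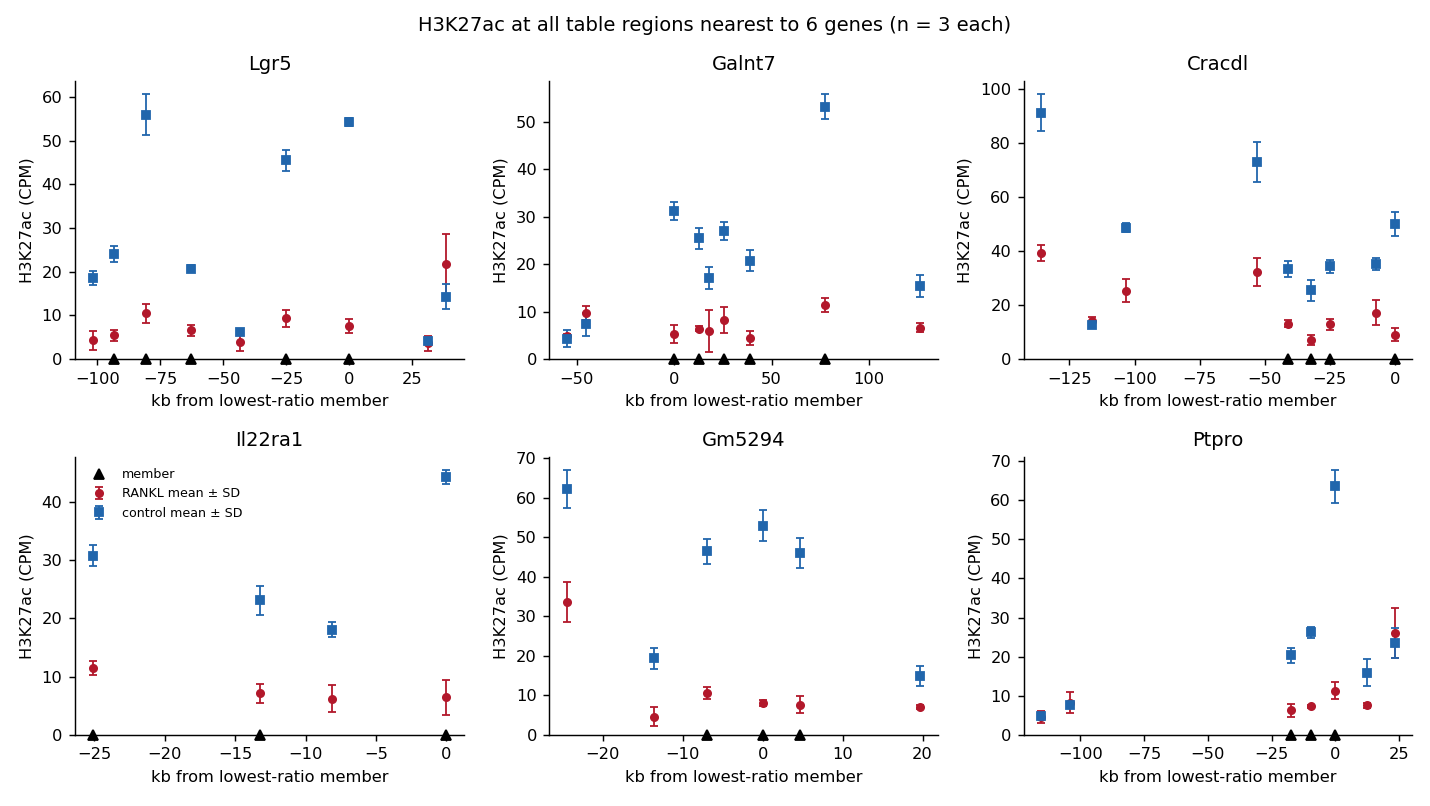
Mean H3K27ac with SD (CPM, n = 3 each) in RANKL (red circles) and control organoids (blue squares) at all table regions nearest to 6 genes, by distance in kb from the gene's lowest-ratio member. Triangles mark members: at Lgr5 a region of low control level lies among them and a region with a ratio of 1.52 lies beyond them. At Il22ra1 the 4 regions were all lower by edgeR.

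Loss at a distal member did not always extend to the start of the gene. There were 146 genes with a member away from the start and a table region within 2 kb of the start. Where RefSeq gives no start, as for Lgr5, Bmp3 and Smoc2, either gene end counts as the start here. Some of these start regions may therefore lie at the far end of the gene. In 15 of them, among them Lgr5, Bmp3, Galnt7, Cracdl, Il22ra1, Smoc2, Efna4 and Ror2, the start region was itself a member. By edgeR the start regions were lower at 100 genes, among them the 15 whose start is a member, higher at 2 and not called at 44. Those that were not members had a median ratio of 0.691. Of other strong regions over a gene end, 63.5% were lower. The sets are unlike, since the 146 include weak start regions, such as that of Anks1b at 3.01 CPM in control organoids. Nothing is therefore read from the 2 shares. The pair with a higher start was Stox2 and Wnt7b, a Wnt ligand gene, both named after their values were seen. Stox2 had a member with means of 10.6 CPM in RANKL organoids and 41.9 CPM in control organoids, whereas its start had 59.1 CPM in RANKL organoids and 17.5 CPM in control organoids. Wnt7b had a member with means of 10.3 CPM in RANKL organoids and 27.8 CPM in control organoids, whereas its start had 14.5 CPM in RANKL organoids and 6.83 CPM in control organoids. Over the 1559 other regions of genes with a member, 32.8% of those tested were lower and 7.65% higher, with a median ratio of 0.915.

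**Figure D4:**
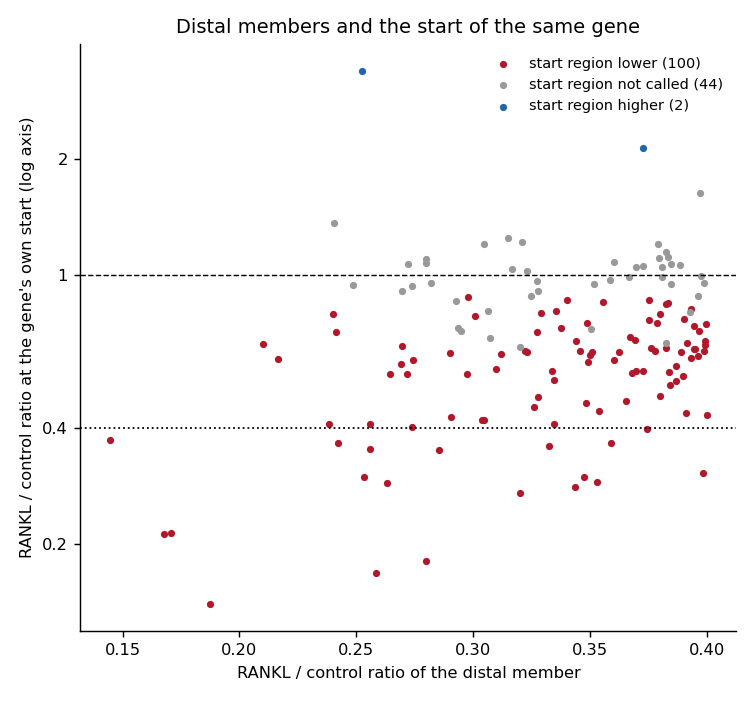
RANKL-to-control ratio at the start of a gene, or at either gene end where no start is given (vertical, log axis), against the ratio of its distal member (horizontal). The 146 genes are coloured by the edgeR call of the start region. Start regions spread from 0.140 at Lgr5 to 3.38 at Stox2, and 100 of them were lower.

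Around members, the ratio of non-member regions was higher at greater distance. The median ratio was 0.735 for 185 regions 5 to 10 kb from a member, 0.794 for 331 regions at 10 to 20 kb, 0.873 for 831 regions at 20 to 50 kb and 0.929 for 1230 regions at 50 to 100 kb. It was 1.14 for regions farther away. The 18 regions within 5 kb had a median ratio of 0.541, but they are few. Neighbouring regions share genes and fragments, so this is a description.

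By place, the members were divided among gene ends, gene spans and intergenic sequence. A gene start or, where the RefSeq table gives no start, either end of the gene lay within 2 kb of 152 members (37.5%), against 55.6% of other strong regions. Another 116 members (28.6%) lay elsewhere in a gene span, against 25.1%, and 137 (33.8%) were intergenic, against 19.3%. Exons, introns and UTRs were not resolved. Over all regions the shares were 22.7% at gene ends, 34.8% in gene spans and 42.5% intergenic. These shares were not tested. Members at gene ends had medians of 11.6 CPM in RANKL organoids and 38.4 CPM in control organoids, and intergenic members 10.5 CPM in RANKL organoids and 32.2 CPM in control organoids. The median ratio was nearly the same in the 3 places, at 0.343, 0.323 and 0.344.

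ONECUT2 is a homeodomain transcription factor, and its sites give a readout that did not choose the members. The authors' deposited table lists 7268 sites that differed between RANKL and control organoids, nearly all of them, 7261, with more ONECUT2 after RANKL. A listed site overlapped 15 members (3.70%), against 8.50% of other strong regions and 5.32% of all regions. A site centre lay within 10 kb of 11.9% of members, against 22.3% of other strong regions and 14.2% of all regions. The sets were not matched for place or control level. In the 15 sites at members, the median log2 fold in the authors' deposited table was 1.08, against 1.61 in the sites at other strong regions, and 13 of the 15 were higher after RANKL. The 2 others account for 2 of the only 7 listed sites that were lower after RANKL. One lies in an intergenic member nearest to Rabep1 (chr11:70828161-70830161), with a log2 fold of -1.09 and an FDR of 0.000237 in the authors' deposited table. The other lies in an intergenic member with no gene within 100 kb (chr2:178593501-178595501), with a log2 fold of -0.57 and an FDR of 0.0373 in that table. The authors' deposited table has no value per library, so no replicate spread can be given.

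Of the 13 sites higher after RANKL, 8 lay wholly inside the member and 5 reached beyond it. The sites at Efna4, Ntn4 and Fam83d, with centres 1004, 1000 and 1034 bp from that of the region, lay across its edge. The strongest in RANKL organoids lay over the start of Vwa2, a secreted matrix protein gene, where the authors' deposited table gives a log2 level of 7.29 in RANKL organoids and 6.43 in control organoids. H3K27ac there was 7.27 CPM in RANKL organoids and 23.1 CPM in control organoids. Hcar2, a receptor for niacin and butyrate, had the largest log2 fold of the 15, at 1.76 in the authors' deposited table, and an H3K27ac ratio of 0.280. The Lgr5 member at chr10:115504935-115506935 holds a site 43 bp from its centre, with a log2 fold of 0.71 and an FDR of 0.00222 in the authors' deposited table, and an H3K27ac ratio of 0.187. Efna4, an ephrin, and Ntn4, a netrin, had the remaining sites of the 5 strongest, with log2 folds of 0.90 and 1.09 in that table.

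Start sites with a RefSeq promoter numbered 128 in members, belonging to 114 genes and 111 regions, and 8468 in other strong regions. In the 250 bases before each start, letters were searched on both strands. They were CTTTGAT or CTTTGAA for TCF/LEF factors, TTTATNG or TTTACNG for CDX factors, CAAAGTC for HNF4 and GATAAG for GATA factors. They were also CCGGAAG for ETS factors, GAAACTG for IRF-type elements, GGGANTT for NF-kB, ATCGAT or TCAATA for ONECUT factors, CCAAT by itself and, for the TATA box, TATAAA. For E2F factors, TTTGGCG or TTTCGCG was added after the data were seen, as was the shorter GAAACT, which includes every GAAACTG. Of these motifs, ETS letters had the widest gap between the sets. They were in 1 of 128 member windows (0.781%, Wilson 95% interval 0.138 to 4.29%), against 17.5% of windows in other strong regions and 8.99% of all 21238 windows.

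The ETS share did not fall gradually with the ratio. It was 14.8% for 283 windows in strong regions with a ratio of 0.4 to 0.5, 18.4% at 0.5 to 0.75, 17.8% at 0.75 to 1 and 15.4% above 1. Member windows held a median of 15 CG dinucleotides and those of other strong regions 18, at the same median GC content of 61.2%. The part of these counts in the ETS share was not tested. The gap depended on the letters searched: the shorter CCGGAA was in 9.38% of member windows and 27.4% of other windows. These windows are not independent, and the difference was not tested.

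The remaining motifs differed little. TCF/LEF letters were in 7.81% of member windows, against 4.95% in other strong regions and 6.73% of all windows, and GAAACTG was in 6.25%, against 4.03% and 4.74%. GAAACT was in 12.5%, against 11.6% and 13.0%, so having these letters was not particular to members. Paired matches, as printed above for 4 interferon-stimulated genes, were not counted. CDX letters were in 14.1% of member windows, against 11.4%, E2F letters in 4.69%, against 4.13%, and CCAAT in 32.0%, against 36.9%. HNF4 letters were in 3.91%, against 3.26%, GATA letters in 4.69%, against 3.80%, and NF-kB letters in 14.8%, against 15.6%. ONECUT letters were in 4.69% of member windows, against 3.76% of windows in other strong regions, and TATA letters in 5.47%, against 5.20%.

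**Figure D5:**
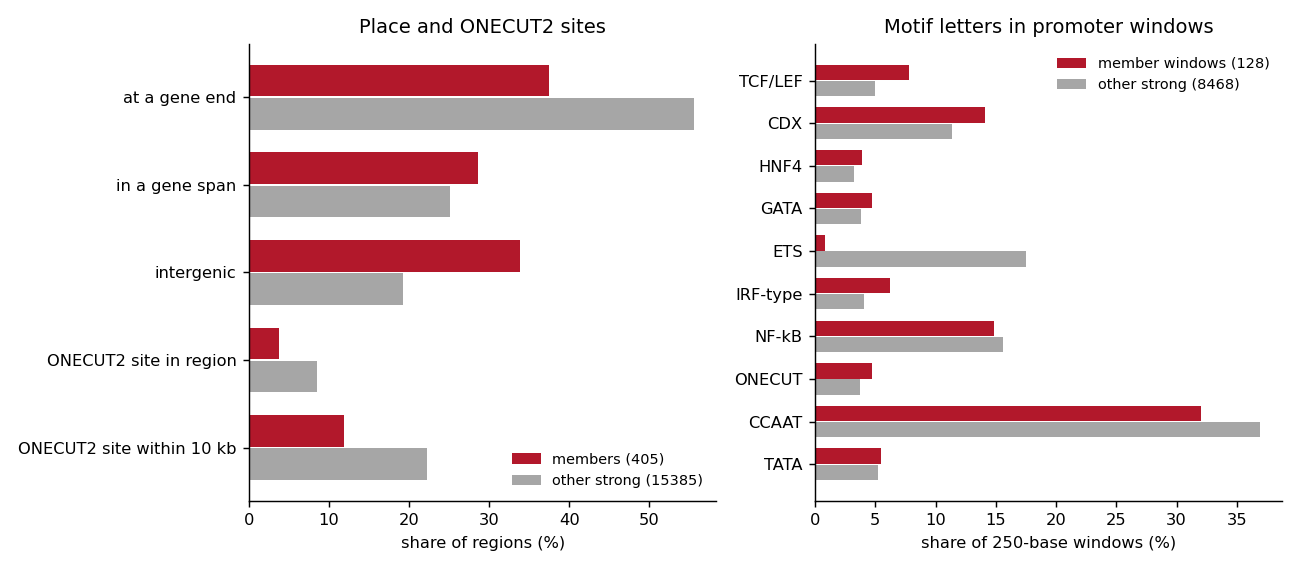
Left, share of 405 members (red) and 15385 other strong regions (grey) by place and by ONECUT2 sites; right, share of 128 member and 8468 other promoter windows of 250 bases with each motif's letters. ETS letters were in 0.781% of member windows and 17.5% of the others; bars start at 0 and carry no error.

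Some lists had no member, which is not read as a finding, since members were 2.56% of strong regions and some of these lists had few. The 25 intestinal transcription factor genes had 92 strong regions, none of them a member, and over their 191 regions 43 were lower and 37 higher by edgeR (22.5% and 19.4%, against 21% and 14.8% of all regions), with a median ratio of 1.04. The M cell list had 14 strong regions and no member, with 2 of 62 regions lower and 35 higher. The Paneth and tuft cell lists had 5 strong regions each and no member, and the enteroendocrine list had no strong region. Markers of other cells were also without a member. Leukocyte markers summed to 165 to 175 CPM in RANKL libraries and 131 to 150 CPM in control libraries. Mesenchymal markers summed to 342 to 358 CPM in RANKL libraries and 273 to 290 CPM in control libraries, and endothelial markers to 559 to 576 CPM in RANKL libraries and 485 to 501 CPM in control libraries. Epithelial markers summed to 1700 to 1741 CPM in RANKL libraries and 1811 to 1953 CPM in control libraries. The part of these shifts in the members' values was not tested.

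At the limits of the choice, the last regions inside by ratio were near Stom (0.3999), Itga6 and Zdhhc14, and the first outside near Ccnjl (0.4001), Zfp704 and Thra. By control level the last inside were near Lipc (20.03 CPM), Zdhhc14 and Apob, and the first outside near Tlr2 (19.95 CPM), Cand1 and Trim30a. Tlr2, a receptor for bacterial lipoproteins, thus had a ratio of 0.272 and was left out by its control level alone.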

How the data were processed

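H3K27ac was measured by ChIPmentation, chromatin immunoprecipitation with adapters added by Tn5, in 3 RANKL and 3 control libraries. The authors' deposited table holds raw read counts per region, and totals were 2745451 to 3902301 reads in RANKL and 5434172 to 9160267 in control libraries, so control values carry less counting error. The submitters' processing notes name mm10 as the build and DiffBind as a tool. For the aligner and peak caller, nothing is given in the sources used here. The ONECUT2 table was deposited by the authors with log2 levels, log2 fold changes, p-values and FDR for listed sites only. A deposited normalised table, a score per library, was not used, and input libraries were not analysed here.

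CPM were counts over the library total, so that a region's levels are per 2000 bp. Coordinates are printed as deposited, with an end 2000 above the start, so whether the start counts from 0 is not known. All regions were tested with edgeR 4.0.16 (quasi-likelihood, TMM, low-count filter, 54765 regions kept, Benjamini-Hochberg adjusted p under 0.05), which was tested on simulated data. Genes and promoters came from RefSeq GRCm38.p6: start sites were given for 17492 of 21900 protein-coding genes, and either gene end was used for the rest. Promoter tables are not complete. Intervals cover counting error only.

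The members, gene lists and rules were chosen with earlier results of these data known. Genes were named by rule: the 10 members with the lowest ratio, the 10 with the highest control level, the genes with most members, members near listed genes, the 5 strongest ONECUT2 sites, and the 3 regions on either side of each threshold. Rabep1, Meaf6, Ror2 and Sptlc1, and the genes said to be picked so, were named after their values were seen. The sample descriptions in the labels number every library of both arms by differentiation experiment, and this was taken as the pairing; deviations from the group means of libraries with the same number correlated at 0.014, -0.027 and -0.0073 in experiments 1 to 3. Between libraries of a group, chi-square over its degrees of freedom was 1.79 to 2.06, above sampling noise, and none was counted as a repeat. Other scalings, thresholds, distances, DESeq2 1.42.0, a replicate block and leaving out each library were tried.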

Additional observations from a re-analysis of the deposited data

How the results depend on the processing

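The members depend on where the limits are put, since no gap separates them from other regions. Requiring 30 CPM in control organoids left 262, a ratio of at most 0.3 left 118, and a ratio of at most 0.5 gave 1048. TMM-normalised library sizes and DESeq2 size factors each gave 556 members, which held all 405. Leaving out each library gave 399 to 451 members, with a median log2 ratio of -1.57 to -1.55, and 86.2 to 94.6% of the 405 were among them. With the pairing by experiment (every experiment's own ratio at most 0.4), 194 remained, with a median log2 ratio of -1.80. The median ratio in the experiment left out was 0.357 with TMM-normalised library sizes. The share with an ONECUT2 site was 11.9% when sites within 10 kb count, the share at gene ends 43.0% within 5 kb, and the share in runs 7.90% at 10 kb and 21.7% at 50 kb. Over all regions, edgeR called 11523 lower and 8120 higher; with the replicate block it called 11095 and 7708, with library size only 9608 and 9918, and DESeq2 called 9540 and 6237. Leaving out each library gave 9972 to 10907 lower and 6737 to 7484 higher. TMM moved the median log2 ratio of all regions to 0.06, against 0.16 by library size, so members' ratios are slightly lower on that scale. With the block all 405 members were lower, as their choice entails, and the calls held at the 4 non-member regions near Lgr5 and the 5 near Smoc2. Counts over the gene lists moved by less than 1.5 times with it, except that 1 M cell region was lower in place of 2. No named member changed direction under any alternative run. RANKL libraries hold fewer reads, and their low counts limit the precision of each ratio.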
